A study of Arabidopsis thaliana with 12 samples.

Results

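DI21, SIS, AILP1 and CCL are 4 nuclear genes of Arabidopsis thaliana known from responses to stress or from the daily rhythm. DI21 (AT4G15910) is named for its induction by drought, SIS (AT5G02020) for its induction by salt and its serine-rich protein, AILP1 (AT5G19140) for its likeness to aluminium-induced proteins, and CCL (AT3G26740) for its likeness to the clock-controlled CCR genes. Each had 1 spot to which the annotation of the array platform assigned that gene and no other, which gave 4 of the 692 single-gene spots among 3439 spots. Their difference between the genotypes was known when they were chosen, so that difference is described below with its error and without a test.

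RNA of the toc34 mutant and of wild-type plants, both in the ecotype Columbia 0, was hybridised to 12 arrays, with 6 arrays for each genotype. TOC34 is a GTP-binding receptor of the machinery by which proteins enter the chloroplast across its outer envelope membrane, and the labels describe the mutant as impaired in that import. The labels give no allele, tissue, plant age, growth condition or time of harvest, and they leave unsaid whether a genotype's 6 arrays were made from different plants, so errors and p-values reflect differences among these arrays, possibly technical ones. No single-gene spot was annotated to TOC34, so its own level could not serve as a check of the labels.

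Plants short of water raise the hormone abscisic acid, which switches on genes for protective proteins and for the closing of stomata, and salt and cold act in part on the same genes. DI21 transcripts are known to build up in leaves and roots as drought progresses and to follow the level of abscisic acid. The circadian clock sets the daily rise and fall of many plant transcripts, and CCL is known as a gene whose messenger RNA also changes in stability over the day under clock control. The state of the chloroplast reaches the nucleus through retrograde signals, which act on photosynthesis genes and on stress genes alike. RNA of whole samples cannot show whether a lower level means fewer cells of a type or less RNA in each cell, and these are not told apart here.

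DI21 and CCL were higher in toc34 than in wild type, and AILP1 and SIS were lower. Intensities are the deposited values on a linear scale whose unit is not stated, and each summary covers 6 arrays. The fold changes and log2 differences, always toc34 minus wild type, come from quantile-normalized log2 intensities fitted with limma over all spots. The 4 genes thus split evenly by direction, with a median log2 difference of 0.32 beside -0.05 over the 2768 spots tested. Their median absolute difference was 1.42, and that of all tested spots was 0.60. The genes were chosen with their differences known, so nothing is read from how these medians compare. The median of 0.32 falls between the lower and the higher genes and describes none of them.

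**Figure D1:**
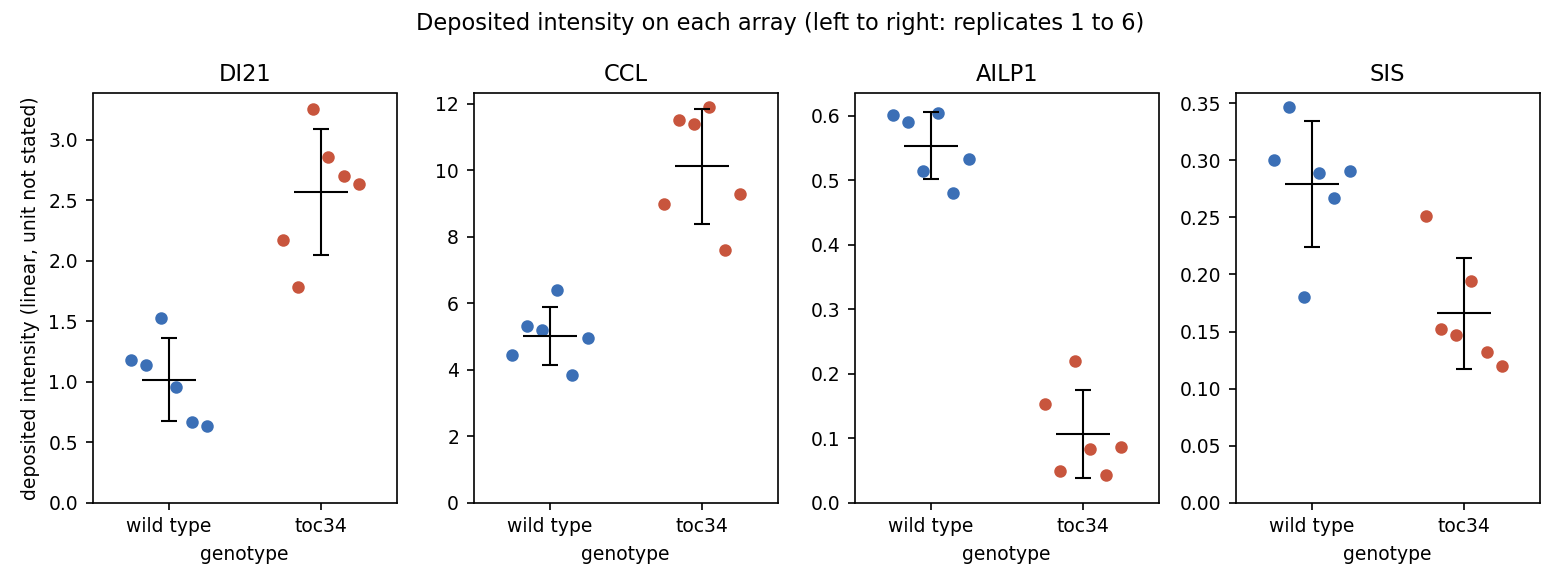
Deposited intensity (linear vertical axis from 0, unit not stated) of DI21, CCL, AILP1 and SIS on the 6 wild-type and 6 toc34 arrays. Each point is an array, ordered from left to right by replicate number, and the black marks are the mean and SD. The genotypes are fully apart for DI21, CCL and AILP1 and overlap for SIS.

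DI21, the drought-responsive gene, ran from 0.636 through a median of 1.05 to 1.53 in wild type, and from 1.78 through 2.66 to 3.25 in toc34. The lowest toc34 array therefore lay above the highest wild-type array. The means were 1.02 ± 0.34 in wild type and 2.56 ± 0.518 in toc34 (SD, n = 6 arrays each). After normalization the gene was 2.86-fold higher in toc34 (log2 difference 1.52, SE 0.23).

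SIS, the salt-induced gene, ran from 0.18 through a median of 0.29 to 0.347 in wild type, and from 0.12 through 0.15 to 0.251 in toc34. The ranges overlapped: the lowest wild-type value, on replicate 3, lay below toc34 replicate 1 at 0.251 and toc34 replicate 4 at 0.194. The means were 0.279 ± 0.0553 in wild type and 0.166 ± 0.0487 in toc34 (SD, n = 6 arrays each). The gene was 1.6-fold lower in toc34 (log2 difference -0.68, SE 0.23), the smallest difference of the 4 genes.

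AILP1, a member of a plant family with a domain resembling glutamine amidotransferases, ran from 0.48 through a median of 0.562 to 0.605 in wild type, and from 0.0438 through 0.0852 to 0.22 in toc34. No toc34 array reached the wild-type range. The means were 0.554 ± 0.0522 and 0.106 ± 0.0682 (SD, n = 6 arrays each). Its log2 difference of -2.49 (SE 0.32) was the largest of the 4 in size. AILP1 was the dimmest of the 4 spots in toc34, where its lowest value lay just above 0.0421, the median over arrays of the 10th percentile of the values above 0.

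CCL, the clock-regulated gene, ran from 3.83 through a median of 5.07 to 6.39 in wild type, and from 7.61 through 10.4 to 11.9 in toc34. All toc34 arrays were brighter than all wild-type arrays. The means were 5.02 ± 0.871 and 10.1 ± 1.74 (SD, n = 6 arrays each), and the gene was 2.51-fold higher in toc34 (log2 difference 1.33, SE 0.17). Its transcript changes over the day, and the labels do not give the time of day at which either genotype was harvested.

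Genotype ranges that do not overlap were common on these arrays. Among the tested spots, 6.72% had every toc34 array above every wild-type array, as DI21 and CCL did, and 13.9% had every toc34 array below every wild-type array, as AILP1 did. All 4 genes were among the spots past the threshold of the fit across all spots (limma, adjusted p under 0.05), a group that held 36.0% of the tested spots, with 17.2% higher and 18.9% lower in toc34. The genes were chosen on this comparison, so nothing is read from that count. In size, the difference of AILP1 was larger than that of 98.3% of the tested spots, DI21 larger than 89.9%, CCL larger than 85.0% and SIS larger than 54.8%.

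**Figure D2:**
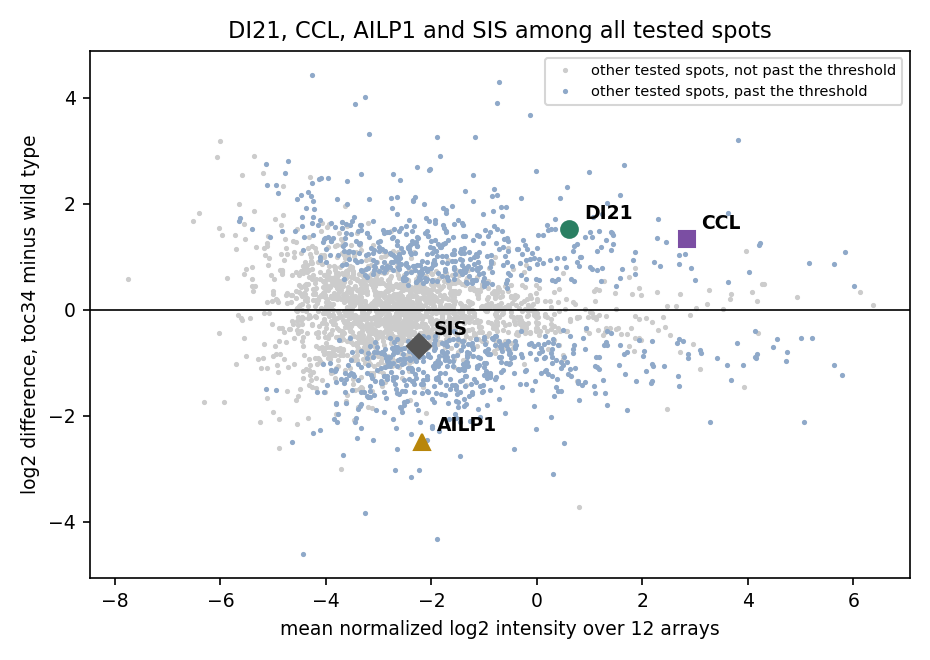
Log2 difference, toc34 minus wild type (vertical axis), against the mean normalized log2 intensity over the 12 arrays (horizontal axis) for the 2768 tested spots. Blue points passed the threshold of the fit and grey points did not. DI21 (1.52) and CCL (1.33) lie above the line at 0, AILP1 (-2.49) lies near the lower edge of the cloud, and SIS (-0.68) lies within it.

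The place of a spot within its own array does not depend on the scaling between arrays. DI21 was brighter than 82.5% to 90.1% of the measured spots on the wild-type arrays and than 93.7% to 96.4% on the toc34 arrays. CCL moved from between 96.5% and 97.4% to between 98.3% and 99.0%. AILP1 moved down from between 73.8% and 80.9% in wild type to between 13.3% and 49.8% in toc34. SIS lay between 44.5% and 69.5% in wild type and between 36.2% and 63.3% in toc34, so its places overlapped as its intensities did. These places describe how bright a spot was and do not rank the abundance of different transcripts.

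The spread between arrays differed among the 4 genes. On the log2 scale AILP1 varied little in wild type and was the most variable of the 4 in toc34. Its SD of normalized log2 intensity was 0.21 in wild type and 0.80 in toc34, 3.83 times as large. In deposited intensity its SDs were 0.0522 and 0.0682, and in toc34 those of DI21 (0.518) and CCL (1.74) were larger. Its toc34 values were dim, down to 0.0438, and the part of this in its log2 spread was not tested. On the log2 scale DI21 had SDs of 0.41 and 0.39, and SIS had 0.39 in both genotypes. CCL had 0.20 in wild type and 0.32 in toc34. Over all tested spots the median SD was 0.31 in wild type and 0.58 in toc34, so a wider spread in toc34 was the usual case on these arrays. Set against the pooled SD of the genotypes, the difference was 5.04 SDs for CCL, 4.26 for AILP1, 3.81 for DI21 and 1.75 for SIS.

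**Figure D3:**
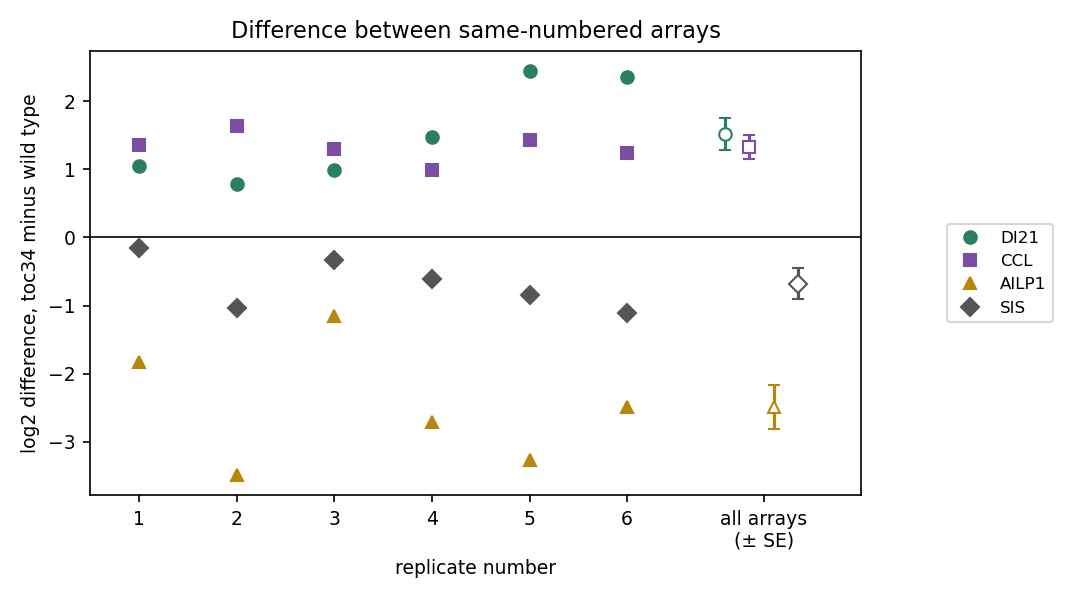
Log2 difference, toc34 minus wild type, between arrays with the same replicate number (filled symbols) and from the fit over all 12 arrays with its SE (open symbols), for DI21, CCL, AILP1 and SIS. DI21 and CCL lie above 0 and AILP1 and SIS below 0 at each of the 6 numbers, with DI21 highest at numbers 5 and 6.

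Differences between same-numbered arrays had the same sign at all 6 numbers for each of the 4 genes. For DI21, CCL and AILP1 the lack of overlap fixes this sign. CCL was the most even, with log2 differences from 0.996 at number 4 to 1.64 at number 2. DI21 ran from 0.79 at number 2 to 2.44 at number 5, and AILP1 from -3.49 at number 2 to -1.16 at number 3. SIS ran from -1.11 at number 6 to -0.16 at number 1.

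Arrays with neighbouring numbers (1 and 2, 3 and 4, 5 and 6) were more alike than other arrays of their genotype across all spots, and DI21 followed this grouping in part. In wild type its replicates 3 and 4 read 1.53 and 0.955, and after normalization replicate 3 (0.22 on the log2 scale) lay with replicates 1 and 2 and replicate 4 (-0.43) lay nearer to 5 and 6. Its wild-type intensity averaged 1.16 for numbers 1 and 2, 1.24 for 3 and 4, and 0.651 for 5 and 6, while in toc34 it averaged 1.97, 3.05 and 2.66. Its normalized log2 difference was 0.92 within numbers 1 and 2, 1.23 within 3 and 4, and 2.40 within 5 and 6. After normalization the largest difference, at numbers 5 and 6, went with the lowest wild-type values (-0.52 and -0.59 on the log2 scale) and also with the highest toc34 values (1.93 and 1.77, beside 0.99 to 1.30 on the other toc34 arrays).

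AILP1 in toc34 did not follow the grouping. The median gap between neighbouring toc34 arrays was 1.34 on the log2 scale and that between other toc34 arrays was 0.81. Replicate 1 read 0.154 beside 0.05 on replicate 2, and replicate 3 read 0.22 beside 0.0841 on replicate 4. Its difference was -2.66, -1.94 and -2.88 within the neighbouring numbers, in the order above. The corresponding differences of CCL were 1.499, 1.15 and 1.34, and those of SIS were -0.60, -0.47 and -0.97.

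The scaling between arrays moved CCL more than the other 3 genes. The median over all tested spots was -0.05 after quantile normalization and -0.20 on the deposited scale. Relative to that median, CCL differed by 1.38 after quantile normalization, 1.21 on the deposited scale, 1.21 with each array centred on its median and 1.52 with cyclic loess. DI21 stayed between 1.57 and 1.69 relative to the median, AILP1 between -2.44 and -2.40, and SIS between -0.63 and -0.56 under these 4 scalings.

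Profiles over the 12 arrays were compared with those of the other single-gene spots measured on every array, 478 spots in all. Likeness was the root mean square difference between normalized log2 values, each centred on its own mean, so a smaller value means a closer pattern, and the value includes the difference between genotypes. DI21 and CCL were 0.46 apart, beside a median of 1.02 from DI21 to all compared spots and 0.91 from CCL. SIS and AILP1, the lower pair, were 1.06 apart, beside medians of 0.76 and 1.48. DI21 and AILP1 were the farthest pair at 2.11.

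The spots closest to DI21 were AT1G11730 (0.28), AT3G09080 (0.35) and AT5G48830 (0.35). AT1G11730 ran from 0.269 to 0.51 in wild type and from 0.673 to 1.29 in toc34. Those closest to CCL were AT1G70200 (0.21), AT4G05030 (0.25) and AT2G46630 (0.27). AT1G70200 ran from 1.05 to 1.49 in wild type and from 2.10 to 4.22 in toc34, a log2 difference of 1.37 (SE 0.13) close in size to that of CCL.

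The closest spots to AILP1 were farther from it, at 0.59 for AT5G56070, 0.66 for AT1G64430 and 0.67 for AT1G13370, a histone H3 gene. Their log2 differences, -1.97, -1.80 and -1.79, were smaller in size than that of AILP1. The spot closest to SIS was PSBW (0.24), a small subunit of photosystem II, followed by AT2G46050 (0.28) and AT1G21660 (0.30). PSBW had a log2 difference of -0.53 (SE 0.18), beside -0.68 for SIS. That nearness depended on the normalization: PSBW differed by -1.23 on the deposited scale, -1.13 with arrays centred on their medians and -0.24 with ceiling values of other spots set to missing, where SIS differed by -0.77, -0.67 and -0.68.

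SIS and AILP1 were each listed on a further spot together with 2 other genes, and such a spot cannot be given to one gene. The spot of SIS, AT5G59080 and AT3G46880 ran from 0.177 through a median of 0.224 to 0.261 in wild type, and from 0.0817 through 0.152 to 0.215 in toc34. Its log2 difference of -0.57 (SE 0.25, limma adjusted p = 0.0955) did not pass the threshold. It passed under 1 of 26 alternatives, the deposited scale (adjusted p = 0.0413), with adjusted p up to 0.412 under the others, and its difference was -0.37 without toc34 replicate 4. The spot of AILP1, AT5G43830 and AT3G22850 was listed at 0 on 4 wild-type and 3 toc34 arrays, reached at most 0.149 in wild type and 0.024 in toc34, and was not tested.

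Other genes of drought, cold, salt and abscisic acid responses had few spots that could be read. Of 57 such genes listed, 33 clock and clock output genes, 15 genes of darkness, sugar starvation and senescence and 13 genes of oxidative stress, 0 had a spot of their own. Of the drought, cold, salt and abscisic acid genes, COR15A and COR15B could be read, on 2 spots that list both genes and no other. Both genes are induced by cold, drought and abscisic acid, and their small hydrophilic proteins are imported into the chloroplast stroma, where they protect membranes during freezing.

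Both spots of COR15A and COR15B rose in toc34. The first ran from 0.0824 through a median of 0.134 to 0.221 in wild type, and from 0.18 through 0.339 to 0.515 in toc34. Only toc34 replicate 5, at 0.18, lay within the wild-type range, below wild-type replicates 3 and 4. It rose 2.57-fold (log2 difference 1.36, SE 0.25, limma adjusted p = 0.00126).

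The second spot ran from 0.0816 through 0.11 to 0.136 in wild type, and from 0.14 through 0.167 to 0.206 in toc34, so its genotypes did not overlap. It rose 1.7-fold (log2 difference 0.77, SE 0.17, limma adjusted p = 0.00321). Both spots were higher in toc34 at 6 of 6 replicate numbers, which for the second spot is fixed by the lack of overlap. When neighbouring numbers were averaged, leaving 3 values for each genotype, the calls ended (limma adjusted p = 0.0551 and 0.0839), at the same differences. The spots carry the same 2 genes, so they are not independent of each other, and 36.0% of all tested spots were called.

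**Figure D4:**
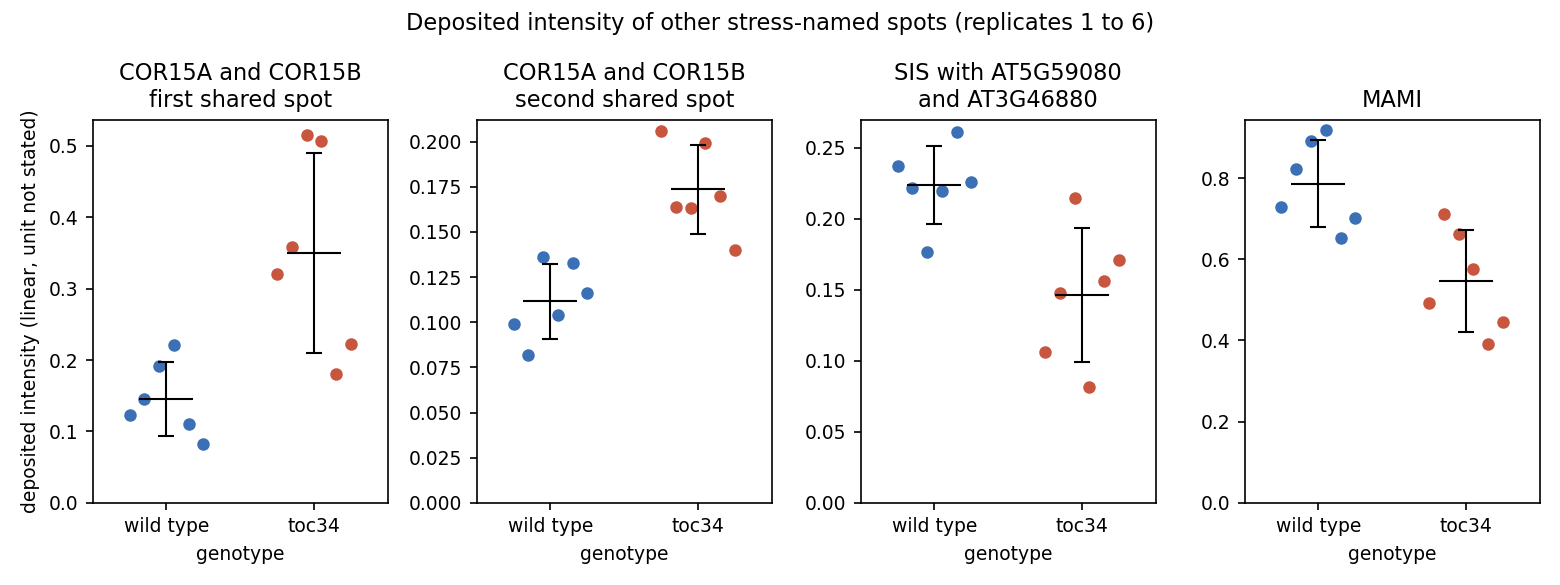
Deposited intensity (linear vertical axis from 0, unit not stated) of 4 further spots on the 6 wild-type and 6 toc34 arrays, with the mean and SD in black. Both spots shared by COR15A and COR15B are higher in toc34, the second without overlap, while the spot that SIS shares with 2 genes and that of MAMI overlap between genotypes.

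A search of the RefSeq names of all single-gene spots for words of stress and rhythm added 1 gene, MAMI (AT5G54110), named as a membrane-associated mannitol-induced protein. The search read symbols and synonyms only. It found DI21 and SIS but missed AILP1 and CCL, so other stress or rhythm genes may have been missed too. MAMI ran from 0.653 through a median of 0.775 to 0.918 in wild type, and from 0.392 through 0.534 to 0.711 in toc34. Its log2 difference of -0.39 (SE 0.15, limma adjusted p = 0.0696) missed the threshold. It passed under 5 of 26 alternatives, among them with the arrays on their deposited scale (-0.55, adjusted p = 0.0431), centred on their medians (-0.45, adjusted p = 0.0381) and without toc34 replicate 2 (-0.49, adjusted p = 0.0135).

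A spot shared by the glutathione reductases GR and GR1, which keep the antioxidant glutathione reduced, was dim. It ran from 0.0117 to 0.0859 in wild type, was listed at 0 on 4 toc34 arrays and reached 0.013 on the other two, and was not tested. A spot shared by AKINBETA1, a subunit of the energy-sensing SnRK1 kinase, and AT4G16360 had a log2 difference of 0.05 (SE 0.17, limma adjusted p = 0.845).

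Among the listed tissue markers, of leaf mesophyll, seed, root and flower, only Rubisco activase could be read. Of these genes, 0 had a spot of their own. Of 2 spots shared by RCA, the activase, and AT1G73110, the brighter ran from 1.46 to 3.33 in wild type and from 1.42 to 1.82 in toc34, with a log2 difference of -0.44 (SE 0.21, limma adjusted p = 0.123). Its wild-type values were 1.46 and 1.70 on replicates 5 and 6, the same arrays on which DI21 was lowest, and 2.86 or more on the other 4. The part of this in the DI21 difference was not tested. The dimmer spot was listed at 0 on 5 wild-type and 6 toc34 arrays.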

How the data were processed

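The deposited table states no unit, and its values were taken as intensity on a linear scale from their range and shape. They run from 0 to a ceiling of 100 that 0 values of the 4 genes reached. Over all spots, 20 toc34 values and 1 wild-type value reached it. With ceiling values set to missing before normalization, the log2 difference of CCL was 1.42, beside 1.33 in the main fit. The authors' background subtraction and scaling were not given in the sources used here. A background subtraction could widen the spread of dim spots and set some to 0. The summed intensity per array ran from 1988 to 3553, with 2784 to 2974 spots above 0, and the number of arrays limits the precision.

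Genotype and replicate number came from the sample titles. Values of 0 were taken as missing, log2 intensities were quantile-normalized because column medians differed by up to 0.50, and spots with at least 4 values per genotype were fitted with limma 3.58.1 in R 4.3.3 without covariates, which left 671 spots untested. P-values are two-sided and adjusted by Benjamini-Hochberg over all 2768 tested spots. The SD is that of deposited values unless log2 is named. The procedure was tested on simulated data with independent arrays and the wild-type spread in both genotypes. Such data lack the wider toc34 spread and the likeness of neighbouring numbers.

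Genes were named through the 2016 platform annotation, updated with RefSeq names of TAIR10.1, which matched 690 of 692 single-gene spots. The 4 genes and the lists were chosen with earlier results of these data known. Named were the 4 genes, the 3 most similar single-gene spots of each, and list genes on single-gene spots. Spots shared by several genes and MAMI fall outside that rule and were added. Promoter motifs and protein features were planned and are not analysed here.

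Across spots, neighbouring numbers correlated at 0.957 to 0.980 in wild type and 0.877 to 0.916 in toc34, other arrays of a genotype at 0.920 to 0.949 and 0.806 to 0.835. The deviation of an array from the mean of its genotype correlated with that of the same-numbered array of the other genotype at 0.134 to 0.274. The replicate number was also fitted as a block. No label states a pairing of same-numbered arrays.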

Additional observations from a re-analysis of the deposited data

Results flagged for a closer look

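SIS had 1 array apart from the others. In toc34, replicate 1 had a normalized log2 intensity of -1.84, while the remaining 5 ran from -2.96 to -2.56. The gap was 0.641 of the whole range, above Dixon's critical value for 6 arrays. Without that array the difference of SIS was -0.83 and with it -0.68. The search covered 45 groups of 6 arrays, the named spots in each genotype, in which chance alone gives about 2.25 such arrays, and it found 1.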

How the results depend on the processing

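The 4 genes kept their direction under all 26 alternatives, and 101 of 104 values moved by less than the spread between arrays. The exceptions were DI21 within replicates 1 and 2 (0.92) and within 5 and 6 (2.40), and CCL on the deposited scale (1.01). Some of the 104 values could not move. The limits on values per spot or on mean level, the blocks and the averaging of neighbouring numbers gave exactly the main differences. For the 4 genes, measured on every array, such settings can change only the SE. With 1 array left out, DI21 ran from 1.40 to 1.60, CCL from 1.23 to 1.39, AILP1 from -2.67 to -2.33 and SIS from -0.83 to -0.60. An offset of 0.0421 added before the logarithm gave -2.02 for AILP1, smaller in size than the -2.49 of the main fit. With that offset DI21 was at 1.49, CCL at 1.33 and SIS at -0.55. The replicate block cannot change the differences of the 4 genes, since each number holds 1 array of each genotype. It gave 1010 calls over all spots and kept both COR15 calls (limma adjusted p = 0.00126 and 0.0146). With neighbouring numbers as a random block, the SE was 0.28 for DI21, 0.24 for CCL, 0.53 for AILP1 and 0.31 for SIS. In that order, the main fit gave 0.23, 0.17, 0.32 and 0.23, and averaging neighbouring numbers gave 0.33, 0.24, 0.275 and 0.30.

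The 997 calls over all spots became 625 with neighbouring numbers as a random block, 381 with them averaged and 549 within numbers 5 and 6. The last pair of settings leave fewer values. The random block allowed for a correlation within neighbouring numbers, estimated at 0.535, where the main fit took the arrays as independent. It left the differences of DI21, CCL, AILP1 and SIS unchanged and gave each a larger SE. What made neighbouring arrays alike was not tested. With 1 array left out the count was 863 to 996. Increases made up 47.6% of calls, and 36.2% on the deposited scale.

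Alternatives for the spots outside the naming rule were added after the data were seen. The first COR15 spot kept its call in 25 of 26 and the second in 23 of 26, which ended with averaging and, for the second, within numbers 3 and 4 (0.49, adjusted p = 0.16) and within 5 and 6 (0.63, adjusted p = 0.121). The brighter RCA spot turned to 0.27 within numbers 5 and 6. The AKINBETA1 spot turned to -0.0575 on the deposited scale and -0.26 within numbers 3 and 4, and with 1 array left out its values lay between -0.0399 and 0.1328. The cause was not tested.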
